A study of Arabidopsis thaliana with 31 samples.

Results

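The genes described here were abundant in every one of 20 single quiescent center (QC) cells of the Arabidopsis root. They were selected on the measured values of those cells: a gene was a member where it was at 10 or more in all 20 cells once each library was scaled to 1000000 (FPM, the paper's term). Of 32678 loci 76 passed, or 0.233%, and 74 remained as members after the QC marker WOX5 and 1 further gene were set aside by the rule. For comparison, 1803 loci were above 0 in all QC cells, and 2133 had a QC median of at least 10 FPM and are called abundant loci below. As QC values chose the members, those values are a description with no test.

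The libraries were 20 single QC cells and 4 aliquots of a lysate of pooled QC cells, all from the WOX5:GFP reporter line at 6 days, and 4 stele cells taken 16 h and 3 taken 0 h after the root tip was cut off, all at 7 days. Stele cells carried WOL:CRE-GR with 35S:lox-CFP, in which a steroid-activated recombinase made in the stele switches on CFP in a cell and its descendants. All plants were Col-0, walls were digested, and single fluorescent cells were picked with a pipette before their cDNA was amplified. When the paper picked markers it left out genes known to be induced by wall digestion. No such filter was used here, and the part of digestion in the levels was not tested. The stele plants were also treated with dexamethasone to switch on the recombinase, and their tips were cut, which is not stated for the QC plants. Line, age, treatment and cell type moved together, so that their parts in a difference between QC cells and stele cells cannot be told apart. No plant is named for any cell, so that each group is 1 sample and groups were compared by values, medians and ranges, with no test of a difference.

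Library totals were 12071810 to 115114702 reads in QC cells, 83718007 to 127775758 in aliquots, 23387890 to 35185668 in stele cells at 16 h and 11637897 to 28121886 at 0 h, and 10 FPM stood for at least 116 reads. Detected genes were nested: those of QC cells 8 to 13 lay within those of QC cell 1, those of QC cells 3 to 7 within QC cell 2, and those of QC cells 19 and 20 within QC cell 14, and each other group was nested within its first library. QC cells 15 and 16 were much more alike than other pairs, as were QC cells 17 and 18, and counting each such pair once gave 76 members. The rule gave 118 members without the set of QC cell 1, 132 without the set of QC cell 2, 107 without the set of QC cell 14 and 79 without QC cells 15 to 18. WOX5 was detected in all 20 QC cells, the 7 markers of root cap, endodermis and cortex were at 0 in all of them, and of 3 epidermis markers CPC was detected in 8 QC cells, at up to 162 FPM, GL2 in 1 and MYB66 in 0. By the nesting, a gene at 0 in QC cell 1, 2 or 14 was at 0 in every cell nested within it. Zeros and counts of cells for these and the stele markers are thus not separate observations of each cell. Summed stele markers reached 22.5 FPM in QC cells, against 2.27 to 285 FPM in stele cells at 16 h and 195 to 843 FPM at 0 h. Of the 6 stele markers PHB was detected in 6 QC cells, SHR in 1, and WOL, BHLH32, HP6 and VND7 in none. HP6 was at 0 in all stele cells too, and SHR in all stele cells at 16 h.

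The quiescent center is a small group of slowly dividing cells at the core of the root stem cell niche. It keeps the neighbouring stem cells undifferentiated, and WOX5 and the PLETHORA transcription factors are known regulators of it. Transcripts found in every cell of a tissue are often those of basic upkeep, such as protein synthesis, ubiquitin and chaperones.

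By role, the 74 members comprised 10 genes of translation, 2 of 18S ribosomal RNA, 8 of ubiquitin, 7 of ubiquitin conjugation and handling, 6 chaperones, 2 of 14-3-3 proteins, 3 small GTPases, 5 of detoxification, 4 of sulfur, glutathione and peroxide, 2 of vitamin B6, 5 dehydration genes, 3 transcription factors, 3 of histone H3.3 and 14 others. In sum they took 6.84 to 17.9% of the reads of a QC cell, with a median of 12.8%, and 12.2 to 13.2% in aliquots. The sum was 7.16 to 12.0% in stele cells at 16 h and 6.60 to 13.4% at 0 h, so that QC cells overlapped every other group, while all 4 aliquots were above all 4 stele cells at 16 h. QC cells 14 and 20 had the lowest sums among QC cells, at 6.84 and 6.97%.

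**Figure D1:**
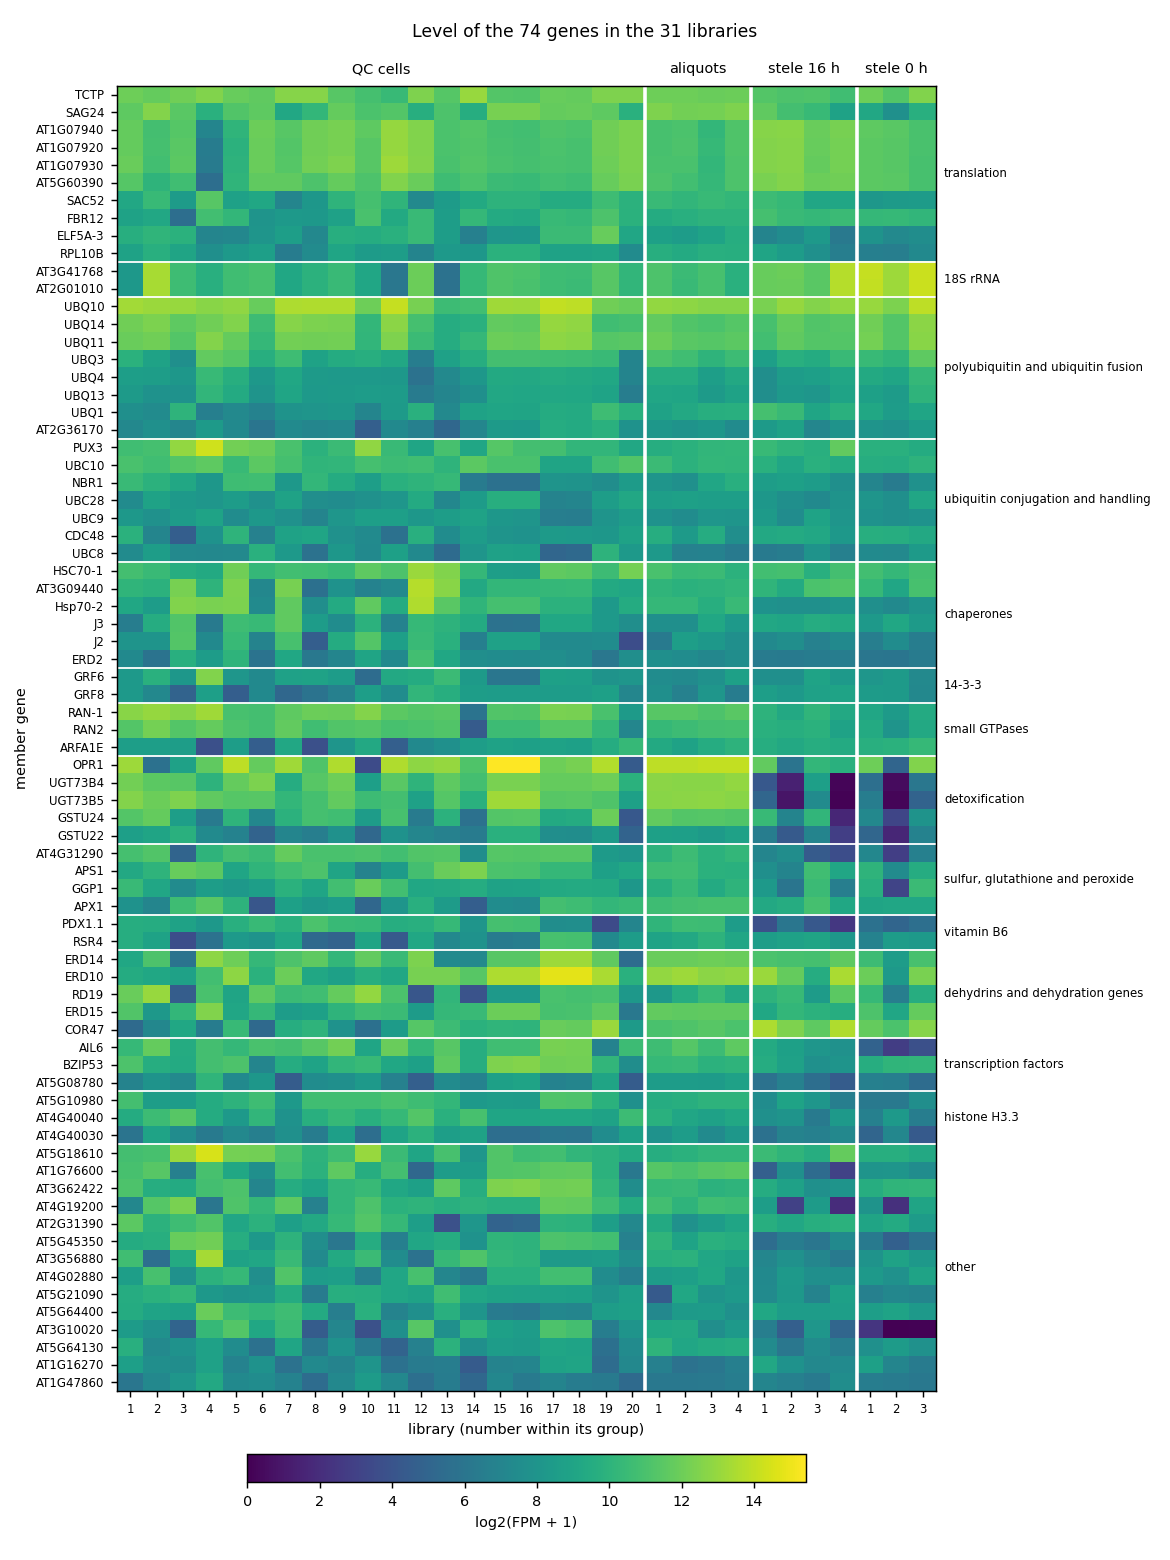
Heat map of the 74 genes (down the page, by role) in the 31 libraries (across, by group), where colour is log2(FPM + 1). UBQ10 and TCTP were high in all libraries, whereas UGT73B4 and UGT73B5 were near 0 in stele cell 4 at 16 h and stele cell 2 at 0 h, and AT3G10020 in stele cells 2 and 3 at 0 h.

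Several members belong to families of near-equal copies, and a read of 50 bases cannot always be given to 1 copy. On the TAIR10.1 annotation, 21 of 73 members (28.8%) shared an exact stretch of 50 exon bases with a gene elsewhere, against 15.8% of 2116 abundant loci and 21.7% of all 31912 nuclear loci that could be placed. A further 13 members shared such stretches only with a gene that overlaps them. The methods state that reads with more than one location were counted in part, which would let a member hold reads of its copies. Since values under 1000 reads were whole multiples of 1 step, how this was done for these values cannot be seen from them. The longest coding run that the 4 EF1A genes (AT1G07920, AT1G07930, AT1G07940 and AT5G60390) have in common is shown because it is longer than a read, whereas those of the 3 RPL10 genes and the 3 histone H3.3 genes are shorter. Capitals mark bases that are the same in all copies.
EF1A, 89 bases, chr1:2456360-2456448 on the plus strand of TAIR10.1: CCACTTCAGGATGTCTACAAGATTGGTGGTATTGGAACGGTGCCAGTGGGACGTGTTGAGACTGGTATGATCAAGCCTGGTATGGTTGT
RPL10, 23 bases, chr1:4888638-4888660 on the plus strand of TAIR10.1: TACGATGTTGGTATGAAGAGGAA
Histone H3.3, 20 bases, chr5:3472916-3472935 on the minus strand of TAIR10.1: CGTAAGTACCAGAAGAGTAC

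Of its 50-base stretches AT1G07920 shared 67.2%, AT1G07940 47.5%, AT1G07930 44.6% and AT5G60390 5.97%. The 18S loci AT2G01010 and AT3G41768 shared 94.3% with each other and had near-equal values in every library, so that they are in effect 1 measurement. BZIP53 and AT3G62422 were equal within 0.1% in all 31 libraries, and AT3G62422 was the member not found in TAIR10.1. UBQ14 shared 35.1%, in part with AT4G02880, a member that overlaps it, and PDX1.1 shared 34.0% with AT2G38210. TCTP, UBC9, UBC10, UBC28, APX1, COR47 and AT3G10020 were among those with no shared stretch. Only exact matches were counted, whereas the authors aligned in local mode and allowed several placements of a read. The lack of a shared stretch therefore does not show that a gene was counted from its own reads alone.

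The 250 bases before the annotated start were searched for short motifs on both strands, in 70 protein-coding members, 2097 abundant genes and all 26711 protein-coding genes. TGGGCC, known from promoters of translation genes, was in 27.1% of members, 19.2% of abundant genes and 13.9% of all genes. TGGGCT was in 14.3%, 15.8% and 12.5% of these sets, AAACCCTA in 5.71%, 3.72% and 4.44%, the G-box CACGTG in 5.71%, 9.39% and 6.58%, and TATAAA in 45.7%, 47.6% and 47.7%. TGACG, the core that TGA-type bZIP factors bind, was chosen after the members were seen and was in 28.6%, 21.3% and 18.6%. Of the 5 detoxification genes, GSTU22, GSTU24, UGT73B4 and UGT73B5 had it and OPR1 did not. The UGT73B4 and GSTU22 promoters are shown because UGT73B4 differed the most between QC cells and stele cells and GSTU22 shares a run with GSTU24, with TGACG or its complement CGTCA in capitals, and for GSTU24 and UGT73B5 only a short window is shown.
GSTU22 promoter, chr1:29474004-29474253 on the minus strand of TAIR10.1: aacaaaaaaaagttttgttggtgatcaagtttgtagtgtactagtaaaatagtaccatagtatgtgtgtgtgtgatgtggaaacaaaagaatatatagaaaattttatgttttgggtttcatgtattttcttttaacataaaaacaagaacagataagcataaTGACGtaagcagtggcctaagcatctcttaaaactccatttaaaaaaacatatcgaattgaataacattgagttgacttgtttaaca
GSTU24 window, chr1:5869371-5869399 on the plus strand of TAIR10.1: tgcTGACGcaggcagtggcctaagcaact
UGT73B4 promoter, chr2:6761385-6761634 on the plus strand of TAIR10.1: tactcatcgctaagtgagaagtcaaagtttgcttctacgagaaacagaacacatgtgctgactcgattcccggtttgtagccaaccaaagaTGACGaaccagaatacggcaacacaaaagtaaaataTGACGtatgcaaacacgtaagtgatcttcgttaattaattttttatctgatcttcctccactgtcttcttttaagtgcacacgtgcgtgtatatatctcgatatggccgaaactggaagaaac
UGT73B5 window, chr2:6758373-6758401 on the plus strand of TAIR10.1: agtCGTCAtcactaaagtaagaagtcaaa

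The GSTU22 and GSTU24 windows shared a run of 15 bases, gcagtggcctaagca, close behind TGACG, and UGT73B4 had 2 copies of TGACG. The GSTU24 window overlaps an exon of AT1G17160. The UGT73B4 promoter lies inside the annotated gene of UGT73B5, outside its exons. A match describes the letters in a window, not a bound factor. Proteins of 70 members had a median of 255 residues, against 391 for 2097 abundant genes and 354 for all 26712 genes.

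Of the 8 ubiquitin genes, UBQ10, UBQ14 and UBQ11 were among the 4 highest members by QC median, and the other five were far lower. Polyubiquitin genes encode repeats that are cut into ubiquitin, the tag for protein turnover. UBQ10 was the highest member, with 1514 FPM in the lowest QC cell, a median of 8644 and 17254 in the highest. It had 7639, 7233, 6359.6 and 6413 FPM in aliquots, 5185, 7934, 6082 and 7899.5 FPM in stele cells at 16 h and 8419, 5250.1 and 15191 FPM at 0 h. All of these lay inside the range of the QC cells, and per kilobase of exon UBQ10 was again first among members, with a QC median of 4229 FPM per kb.

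UBQ14 had a QC median of 3872 FPM (756 to 7993), 3354, 2463, 2091 and 2587 FPM in aliquots, 1922, 3457, 2461 and 2773 FPM in stele cells at 16 h and 4339.8, 2531 and 6987 FPM at 0 h. UBQ11 had a QC median of 3751 FPM (733 to 7011), 4014, 2837, 2677 and 2971 FPM in aliquots, 1719.6, 3268, 2554 and 2487 FPM in stele cells at 16 h and 4670.4, 2519.8 and 6519 FPM at 0 h. QC cell 13 was the lowest QC cell for UBQ10, UBQ14 and UBQ11 alike. UBQ3, UBQ4 and UBQ13 had QC medians of 807, 361 and 348 FPM, and UBQ1 and AT2G36170, which fuse ubiquitin to a ribosomal protein, of 316 and 161 FPM. In a list of 9 ubiquitin genes 7 were members, and the other two, UBQ5 and UBQ6, were at 10 FPM or more in 17 and 19 QC cells. The 8 members summed to 3934 to 35908 FPM in QC cells, 14021 to 19222 in aliquots, 11881 to 18049 in stele cells at 16 h and 12851 to 35033 at 0 h.

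Genes that place or read ubiquitin included the least variable members. UBC8, UBC9, UBC10 and UBC28 encode ubiquitin-conjugating enzymes, and UBC9, UBC10 and UBC28 were among the 5 members with the smallest SD of log2 FPM over QC cells. UBC9 had 92.2 to 489 FPM over QC cells, a median of 285 and an SD of 0.70. It had 235, 178, 273 and 260.3 FPM in aliquots, 333, 184, 501 and 263 FPM in stele cells at 16 h and 227, 205 and 232 FPM at 0 h. Only the value of stele cell 3 at 16 h was outside the range of the QC cells.

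UBC10 had 507 to 3149.6 FPM over QC cells, a median of 1763 and an SD of 0.73, with 1464, 944, 1196 and 1152 FPM in aliquots, 886, 569, 876 and 716 FPM in stele cells at 16 h and 792, 754 and 989 FPM at 0 h. UBC28 had 119 to 802 FPM over QC cells, a median of 302 and an SD of 0.86, with 408, 441, 392 and 397 FPM in aliquots, 287, 201, 159 and 241 FPM in stele cells at 16 h and 259, 205 and 556 FPM at 0 h. For both, all aliquots and stele cells lay inside the range of the QC cells, while UBC8 was more variable, with an SD of 1.42 over QC cells. CDC48, an ATPase that pulls ubiquitinated proteins apart, NBR1, a receptor for autophagy of such proteins, and PUX3, a UBX-domain protein of the kind that binds CDC48, had QC medians of 272, 505 and 1789 FPM.

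Translation members were the 4 EF1A genes, which bring aminoacyl-tRNA to the ribosome, the RPL10 genes SAC52, RPL10B and SAG24 of the large ribosomal subunit, the eIF5A genes FBR12 and ELF5A-3, and TCTP, a small growth-related protein. TCTP had the smallest spread of all members, with 1342 to 8277 FPM over QC cells, a median of 3685 and an SD of 0.66. It had 4238, 4073, 3882 and 4063 FPM in aliquots, 2505, 2225, 2310.2 and 1690.2 FPM in stele cells at 16 h and 4183, 2554 and 5867 FPM at 0 h. The 4 cells at 16 h were all below the 3 at 0 h, but the medians were less than 2-fold apart.

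AT1G07940 was the highest EF1A gene in QC cells, with 129 to 8256 FPM and a median of 2658. It had 1936, 2168, 1199 and 2266 FPM in aliquots, 6252, 6551, 3759 and 4959 FPM in stele cells at 16 h and 3055, 2855 and 2017 FPM at 0 h. All cells at 16 h were above those at 0 h with medians less than 2-fold apart, as for the other three EF1A genes, whose QC medians were 2160.1 to 2634 FPM. All 4 EF1A genes were lowest in QC cell 4 and highest in QC cell 11.

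SAG24 had 597 to 6046 FPM over QC cells with a median of 2702, 5476, 4426, 4727 and 5594 FPM in aliquots, 3219.9, 1798, 1326 and 477 FPM in stele cells at 16 h and 602, 213 and 864 FPM at 0 h. RPL10B had 89.9 to 913 FPM over QC cells with a median of 396 and an SD of 0.92, 821, 691, 861 and 819 FPM in aliquots, 512, 367, 209.6 and 96.7 FPM in stele cells at 16 h and 100.2, 96.3 and 159 FPM at 0 h. For both, stele cell 4 at 16 h was the lowest of its group and overlapped the cells at 0 h. FBR12 and ELF5A-3 had QC medians of 685 and 649 FPM. Of the wider machinery, 4 of 11 elongation factors and 2 of 10 initiation factors were members. So were 3 of 320 loci whose annotated product names a ribosomal protein, with named organelle proteins left out. SAG24 is not in that list, because its annotated product does not name a ribosomal protein. The 18S locus AT3G41768 had a QC median of 1435 FPM, with 3649, 3916, 2911 and 13539 FPM in stele cells at 16 h and 16860.3, 9120.1 and 18994 FPM at 0 h, where stele cell 4 at 16 h overlapped the cells at 0 h.

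Chaperone members were HSC70-1, AT3G09440, Hsp70-2 and ERD2 of the HSP70 family, which fold and refold proteins, and J2 and J3, DNAJ proteins that stimulate them. Their QC medians ran from 187 FPM (ERD2) to 1681 FPM (HSC70-1). QC cell 12 held the highest level of all 4 HSP70 members, with 13398 FPM of AT3G09440 and 12068 FPM of Hsp70-2. J2 had 11.4 FPM in QC cell 20, a median of 339.7 and 2560.0 in QC cell 10, with 78.1, 401, 292 and 208 FPM in aliquots, 159.7, 199.6, 109.8 and 162 FPM in stele cells at 16 h and 94.9, 179 and 93.0 FPM at 0 h. Summed, the 6 genes had 2382 to 38551 FPM over QC cells, 4247 to 4891 in aliquots, 3593 to 5358 in stele cells at 16 h and 2761 to 4525 at 0 h.

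The 14-3-3 genes GRF6 and GRF8 encode adaptors that bind phosphorylated proteins, and had QC medians of 352 and 339 FPM. They were 2 of a list of 12 such genes. RAN-1 and RAN2 drive transport through the nuclear pore, and ARFA1E, with a QC median of 393 FPM, acts in vesicle budding. RAN-1 had 57.7 to 9556 FPM over QC cells with a median of 3062, 2769, 2724, 2229 and 2865 FPM in aliquots, 1009, 634, 1104 and 646 FPM in stele cells at 16 h and 565, 345 and 690.3 FPM at 0 h. RAN2 had a QC median of 2308 FPM. QC cell 14 was the lowest QC cell for both RAN genes, at 57.7 and 20.6 FPM.

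Of the 5 detoxification genes, UGT73B4 and UGT73B5 had the largest ratios between QC cells and stele cells of all members. UGT73B4 and UGT73B5 encode glycosyltransferases that attach sugars to small molecules, GSTU22 and GSTU24 are tau-class glutathione transferases, and OPR1 is a reductase of the oxophytodienoate family. UGT73B4 had 409.8 to 5379 FPM over QC cells with a median of 3023, and 6870.5, 6635, 6563 and 7852 FPM in aliquots. In stele cells it had 17.7, 1.65, 413 and 0.171 FPM at 16 h and 48.6, 0.391 and 68.4 FPM at 0 h. The lowest QC cell was just below stele cell 3 at 16 h, and the other stele cells were below every QC cell.

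UGT73B5 had 438 to 9667 FPM over QC cells with a median of 2694, and 6467, 6839.8, 7164 and 6581 FPM in aliquots. In stele cells it had 32.5, 0.796, 172 and 0.0855 FPM at 16 h and 92.4, 0.178 and 29.2 FPM at 0 h, so that no stele cell overlapped the QC cells. The ratio of the QC median to the median over the 7 stele cells was 171 for UGT73B4 and 92.3 for UGT73B5, the largest pair among members. UGT73B4 shared 19.0% of its 50-base stretches with UGT73B5, whose gene model overlaps it.

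**Figure D2:**
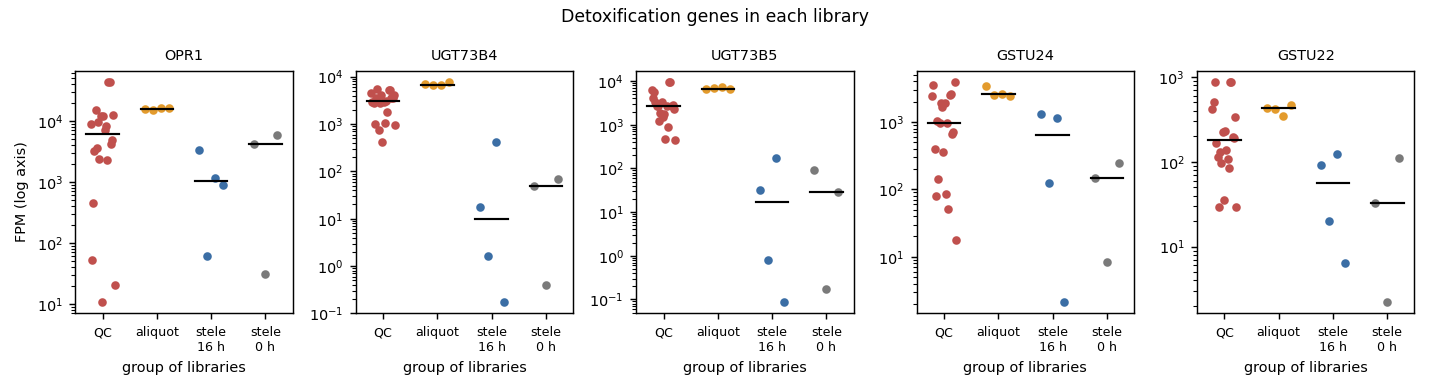
FPM on a log axis of the 5 detoxification genes, with a point for each library and a line at the median of its group. UGT73B5 was at 438 FPM or more in all QC cells and at 172 FPM or less in all 7 stele cells, while OPR1 overlapped between QC cells and stele cells.

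OPR1 was the second highest member in QC cells and the most variable. It had 10.6 FPM in QC cell 10, a median of 5999 and 43972 in QC cell 16, with an SD of 3.38. It had 15440.0, 15190.1, 16226 and 16397 FPM in aliquots, 3317, 60.5, 1163 and 900.3 FPM in stele cells at 16 h and 4219, 31.2 and 5809 FPM at 0 h. QC cells 10, 20 and 2, at 10.6, 20.5 and 53.0 FPM, were below every stele cell at 16 h, while the aliquots lay close together. OPR1 shared 12.3% of its 50-base stretches with AT1G76690, which overlaps it and had a QC median of 1781 FPM.

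GSTU24 had 17.6 to 3974 FPM over QC cells with a median of 967, 3393, 2548, 2601 and 2435 FPM in aliquots, 1330.0, 124, 1138 and 2.10 FPM in stele cells at 16 h and 145, 8.29 and 245 FPM at 0 h. GSTU22 had 29.0 to 877 FPM over QC cells with a median of 178, 431, 423, 344 and 462 FPM in aliquots, 92.2, 20.0, 125 and 6.37 FPM in stele cells at 16 h and 33.1, 2.20 and 111 FPM at 0 h. Stele cell 4 at 16 h and stele cell 2 at 0 h were the lowest of their groups for both GSTU and both UGT genes, although stele cell 2 had the largest library of the cells at 0 h. As a group the 5 genes summed to 1443 to 62218 FPM in QC cells, 31637 to 33726 in aliquots, 207 to 4790 in stele cells at 16 h and 42.2 to 6263 at 0 h.

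Members of sulfur and glutathione metabolism were APS1, the ATP sulfurylase at the start of sulfate assimilation, GGP1, a gamma-glutamyl peptidase, AT4G31290, a ChaC-like gene of glutathione breakdown, and APX1, a peroxidase that uses ascorbate. AT4G31290 had 29.7 to 3447 FPM over QC cells with a median of 2070.4, and 1023, 1509, 969 and 1184 FPM in aliquots. In stele cells it had 129.5, 185, 20.1 and 11.3 FPM at 16 h and 142, 6.29 and 104 FPM at 0 h. Only QC cell 3 was below the highest stele cell, and the ratio of the QC median to the stele median was 19.9. GGP1 had a QC median of 609 FPM, with 324, 62.6, 1456 and 95.2 FPM in stele cells at 16 h and 848, 8.00 and 1455 FPM at 0 h, where stele cell 2 was again the lowest. APS1 and APX1 had QC medians of 1217 and 361 FPM.

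The vitamin B6 genes PDX1.1 and RSR4 (PDX1.3) encode subunits of the enzyme that makes pyridoxal phosphate. PDX1.1 had 10.7 FPM in QC cell 19, a median of 819 and 2105 in QC cell 8, and 1087, 1591, 1545 and 368 FPM in aliquots. In stele cells it had 12.7, 66.2, 17.8 and 4.70 FPM at 16 h and 53.0, 32.4 and 49.4 FPM at 0 h. Apart from QC cell 19 every QC cell was above every stele cell, and the ratio of the QC median to the stele median was 25.3. RSR4 had medians of 236 FPM in QC cells, 421 in stele cells at 16 h and 312 at 0 h.

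Dehydration genes varied widely over QC cells. ERD10, ERD14 and COR47 are dehydrins, disordered proteins that protect cells when water is lost, RD19 is a cysteine protease and ERD15 a small dehydration-induced protein. RD19 had 14.3 to 8579.7 FPM over QC cells, a median of 1747 and an SD of 2.76, with 301, 743, 1323 and 627 FPM in aliquots, 989, 1366, 353 and 2949 FPM in stele cells at 16 h and 1263, 96.8 and 786 FPM at 0 h. ERD14 had 42.6 to 9373 FPM over QC cells, a median of 2453 and an SD of 2.31, with 3871, 3869, 4089.8 and 3770.5 FPM in aliquots, 2128, 1993, 1862 and 3058 FPM in stele cells at 16 h and 1536, 362 and 1964 FPM at 0 h. For both, stele cell 2 at 0 h was the lowest stele cell.

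COR47 had 38.3 to 8947 FPM over QC cells, a median of 847 and an SD of 2.27, with 2015, 2327, 2748 and 2164 FPM in aliquots, 11723, 5554, 3135 and 12274 FPM in stele cells at 16 h and 3489.6, 2102 and 6316 FPM at 0 h. All stele cells were above the QC median and, apart from stele cells 1 and 4 at 16 h, below the highest QC cell. ERD10 had medians of 2254 FPM in QC cells, 6129 in stele cells at 16 h and 4004 at 0 h, and ERD15 of 1307, 859.7 and 2178 FPM.

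Of the transcription factors, AIL6 (PLETHORA3) acts with other PLETHORA genes in the stem cell niche, BZIP53 is a basic leucine zipper factor and AT5G08780, with a QC median of 165 FPM, has a winged-helix domain. AIL6 had 111 to 4911 FPM over QC cells with a median of 1744, and 1570.5, 2662, 1503 and 3061 FPM in aliquots. It was 1 of 7 QC markers in the lists, of which PLT1 and BBM were at 10 FPM or more in 18 of 20 QC cells, PLT2 in 17, SCR in 11 and AGL42 in 0. BZIP53 had 128 to 5985 FPM over QC cells with a median of 1147.

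Histone H3.3 is the H3 variant laid down outside DNA replication, and its genes AT5G10980, AT4G40040 and AT4G40030 had QC medians of 1092, 851 and 162 FPM. AT5G10980 had 179, 495, 273 and 95.4 FPM in stele cells at 16 h and 76.0, 74.9 and 193 FPM at 0 h, below its QC minimum of 217 FPM in all 3 cells at 0 h and in 2 of 4 at 16 h.

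The other 14 members were of mixed function. AT5G18610 and AT1G16270 are protein kinases, AT2G31390 is a pfkB-like carbohydrate kinase, AT3G56880 has a VQ motif, AT5G21090 has leucine-rich repeats and AT5G64400 a CHCH domain. AT4G19200 and AT5G45350 are proline-rich, AT5G64130 is related to a cAMP-regulated phosphoprotein, AT4G02880 is annotated as ELKS/Rab6-interacting, AT1G47860 is annotated as a pseudogene, and AT1G76600, AT3G10020 and AT3G62422 are named only. AT5G45350 had a QC median of 763 FPM, with 44.2, 91.1, 64.8 and 159 FPM in stele cells at 16 h and 80.7, 25.2 and 52.5 FPM at 0 h, a ratio of 11.8 of the QC median to the stele median. AT1G76600 had a QC median of 1366 FPM, with 24.3, 209.7, 40.3 and 7.31 FPM in stele cells at 16 h and 256, 262 and 181 FPM at 0 h. AT4G19200 had a QC median of 1094 FPM, with 378, 6.93, 358 and 2.91 FPM in stele cells at 16 h and 242, 3.38 and 523 FPM at 0 h, where stele cells 2 and 4 at 16 h and stele cell 2 at 0 h were far below the others.

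PUX3, AT5G18610 and AT1G47860 lie on different chromosomes, yet their levels followed each other over QC cells. Pearson's r of log2 FPM over the 20 QC cells was 0.99 for PUX3 with AT5G18610, 0.94 for PUX3 with AT1G47860 and 0.93 for AT5G18610 with AT1G47860. This is a description, since cells share sets of libraries, and the median r over all 2701 pairs of members was 0.04. Of the 19 pairs at 0.9 or above, the others were copies within the EF1A, ubiquitin, RAN, RPL10, HSP70 and 18S families, and BZIP53 with AT3G62422. QC cell 4 had the highest level of each, with 20491 FPM of PUX3, 22849.8 FPM of AT5G18610 and 639 FPM of AT1G47860. PUX3 had 784, 908, 1130.2 and 1170.2 FPM in aliquots, 1371, 1029, 838 and 3378 FPM in stele cells at 16 h and 874, 895 and 719.9 FPM at 0 h. AT5G18610 had 778, 925, 1145 and 1136 FPM in aliquots, 1467, 1069.5, 776 and 3459.9 FPM in stele cells at 16 h and 824, 803 and 629 FPM at 0 h. Both were highest among stele cells in stele cell 4 at 16 h.

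These genes shared no exact stretch of 50 exon bases with each other. With other loci, AT1G47860 shared 19.0% of its stretches and AT5G18610 0.77%, the latter with AT5G18620, which overlaps it. PUX3, AT5G18610 and AT1G47860 were the 3 members with a run of 25 or more A or T bases in the gene or within 250 bases of it. They were 4.11% of 73 members, against 1.18% of abundant loci and 0.526% of all loci. The limit of 25 was not planned and equals the run of AT1G47860, while COR47 had 23 bases and AT1G07930 had 22. The match of these genes to the limit is thus a description and no separate support. The run was 36 bases long before the annotated start of PUX3, 37 in a non-coding part of an exon of AT5G18610 and 25 in an exon of AT1G47860. Those of PUX3 (all A) and AT1G47860 (all T on its strand) are shown in capitals, to give the length of each run, and they differ in base and place.
PUX3, chr4:11732792-11732867 on the minus strand of TAIR10.1: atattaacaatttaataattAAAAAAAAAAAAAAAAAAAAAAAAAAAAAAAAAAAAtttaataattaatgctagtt
AT1G47860, chr1:17623134-17623198 on the minus strand of TAIR10.1: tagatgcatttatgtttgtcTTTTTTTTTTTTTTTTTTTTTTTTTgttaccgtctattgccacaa

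The part of these runs in the levels was not tested.

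**Figure D3:**
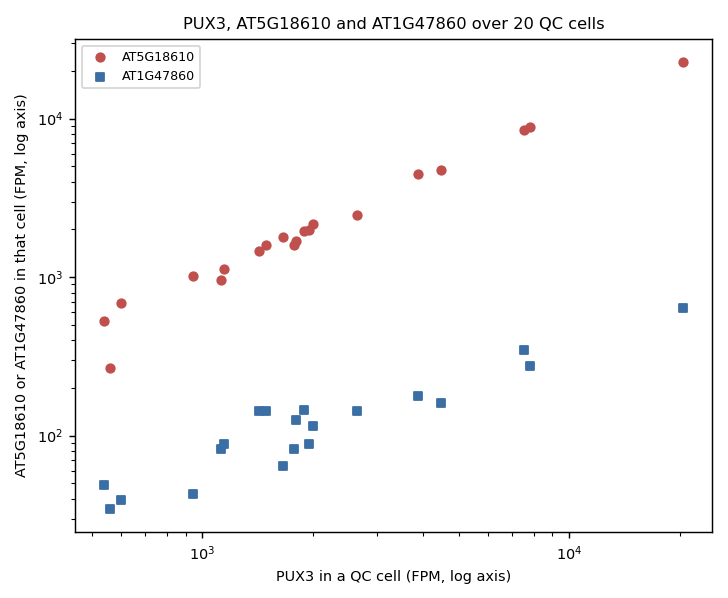
FPM of AT5G18610 (circles) and AT1G47860 (squares) against FPM of PUX3, both on log axes, with a pair of points for each of the 20 QC cells. Both genes were highest where PUX3 was highest, in QC cell 4, at 22849.8 and 639 FPM.

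The spread over QC cells was set beside that over the 4 aliquots, which came from 1 pool. The SD of log2 FPM over QC cells had a median of 1.43 over the members and ran from 0.66 (TCTP) to 3.38 (OPR1). The median was 1.27 within the sets of libraries and 1.45 with each alike pair of QC cells counted once. For the value within sets, QC cells 15 to 18, which are the alike pairs and lie in no set, were taken as 1 further set. Over aliquots, with 1 FPM added, the median SD was 0.34, from 0.04 to 2.13. The SD over QC cells was the larger one for 73 of 74 members. The exception was AT5G21090, with 19.5, 575, 254 and 317 FPM in aliquots, where aliquot 1 was far below the others, and SDs of 0.95 over QC cells and 2.13 over aliquots. The aliquots also had larger libraries than most QC cells. The part of depth in the gap was not tested beyond thinning all libraries to 11637897 reads, which gave medians of 1.44 and 0.34. The paper states that its QC cells were collected in 4 batches and that the pool was made of 4 of them. No label gives the batch of a cell, and the part of batch in the gap was not tested.

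The highest QC cell was 100-fold or more above the lowest for 22 members and under 10-fold above it for 5, with a median ratio of 46.6. The aliquot median fell inside the range of the QC cells for 73 members, within 2-fold of the QC median for 55 and above it for 41.

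**Figure D4:**
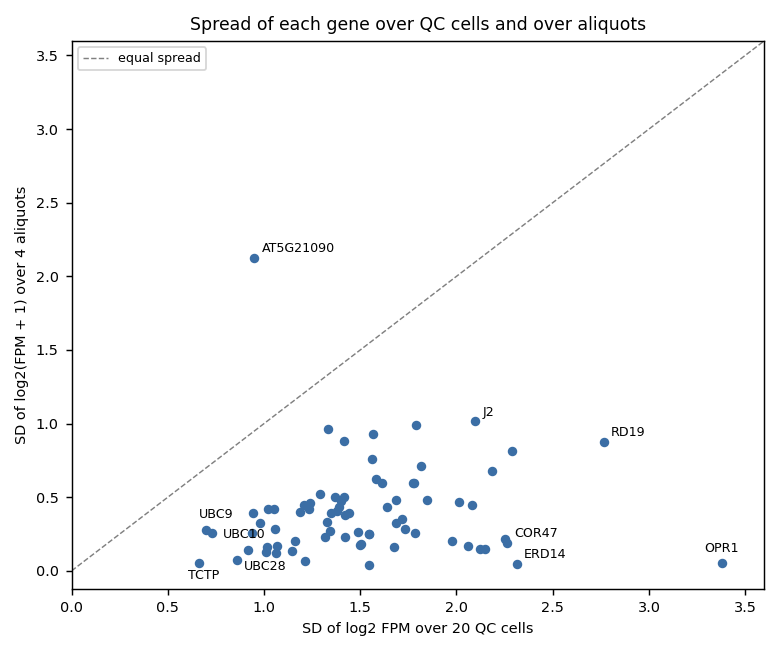
SD of log2(FPM + 1) over the 4 aliquots against SD of log2 FPM over the 20 QC cells, with a point for each of the 74 genes and a dashed line where both are equal. Only AT5G21090, at 2.13 over aliquots and 0.95 over QC cells, was above the line.

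Leaving out 1 QC cell gave 74 to 86 members, with 86 without QC cell 10 or 20, 85 without QC cell 4 and 83 without QC cell 3. Among the members, QC cell 14 held the lowest value of 8, QC cell 20 of 7 and QC cells 4, 6, 10 and 13 of 6 each. Just inside the threshold were OPR1 at 10.6 FPM, PDX1.1 at 10.7 and J2 at 11.4, and just outside were AT1G35550 at 9.55, the tubulin gene TUB2 at 9.53 and AT3G61260 at 9.37, each below 10 FPM in 1 of 20 cells. For these last genes that cell was QC cell 4, QC cell 10 and QC cell 3, in that order. None of 8 actins, 15 tubulins, 15 genes of cytosolic glycolysis, 8 of the methionine cycle, 5 metallothioneins or 4 cyclophilins was a member, although 6 actins and 11 glycolysis genes were abundant loci. ACT7, with a QC median of 819 FPM, was at 10 FPM or more in 17 of 20 QC cells and at 1.22 FPM in the lowest. Of 15 usual reference genes for quantitative PCR 5 were members, UBQ10, AT5G60390, UBC9, UBC10 and UBC28.

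In aliquots, which the rule did not use, all 74 members were at 10 FPM or more in all 4, against 7.11% of all loci and 63.9% of abundant loci. The lowest value was the 19.5 FPM of AT5G21090 in aliquot 1. In stele cells at 16 h, 67 of 74 members were at 10 FPM or more in all 4 cells, against 12% of all loci and 69% of abundant loci. At 0 h the count was 65 of 74 in all 3 cells, against 15.8% and 71.1%, and 73 without stele cell 2. Members and abundant loci were both chosen on QC values, with a stricter floor for members. Their shares are thus not like for like, and the part of that floor was not tested. Over all 7 stele cells 63 members held, and all 74 were above 0 in each. The 11 that fell short were the detoxification genes UGT73B4, UGT73B5, GSTU24 and GSTU22, the glutathione genes AT4G31290 and GGP1, and PDX1.1, AIL6, AT1G76600, AT4G19200 and AT3G10020.

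Between stele cells at 16 h and 0 h, a gene was called higher or lower where the medians were 2-fold or more apart and the cells did not overlap. All 74 members had a mean of 10 FPM or more over stele cells and were compared. Of them 3 were higher at 16 h, against 7.49% of 9554 loci, and 3 were lower, against 9.29%, so that members were called at about the background share or below it. The median log2 difference of the members was 0.24, against -0.03 over all loci compared. With libraries scaled by the median ratio it was -0.03 for members and -0.27 for all loci, so that its direction rested on the scaling. With total scaling it was 0.08 without stele cell 1 at 16 h, 0.08 without stele cell 2 at 0 h and up to 0.36 without another cell.

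AIL6 was higher at 16 h, with 701, 437, 272 and 219 FPM, against 28.0, 5.83 and 12.4 FPM at 0 h. The ratio of the medians was 28.6, and all 4 cells at 16 h were inside the range of the QC cells. AT5G10520, a gene that overlaps AIL6 and shares 15.1% of its 50-base stretches, had 79.3, 17.5, 0.0733 and 0.0428 FPM at 16 h and 0.430, 0 and 0 FPM at 0 h, below AIL6 in every cell. AT3G10020 had 96.8, 24.4, 272 and 33.3 FPM at 16 h, against 4.12, 0.0356 and 0.0492 FPM at 0 h. Its values at 0 h stood for 48, 1 and 1 reads, so that no fold is given, and the log2 difference with 1 FPM added was 5.79. Over QC cells AT3G10020 had 13.2 to 2702 FPM with a median of 363, an SD of 2.29 and a ratio of 14.9 to the stele median, and it had 591, 633, 192 and 310.1 FPM in aliquots. SAC52 had 1537, 1293, 564 and 565 FPM at 16 h and 287, 344 and 349 FPM at 0 h, a ratio of 2.70. In the list of ribosomal proteins picked by annotated product, 30 of 246 genes compared were higher at 16 h and 0 lower. The shares over all loci compared were 7.49% higher and 9.29% lower.

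BZIP53 was lower at 16 h, with 733, 457, 217 and 248 FPM, against 789, 1096 and 1126 FPM at 0 h, and AT3G62422 had the same values, so that both are 1 measurement. AT3G56880 was lower too, with 136, 218, 134 and 82.2 FPM at 16 h, against 243, 481 and 299.7 FPM at 0 h. For both, the highest cell at 16 h was close to the lowest at 0 h. In lists without a member, 6 of 8 actins, 10 of 15 tubulins and 1 of 3 cyclophilins compared were lower at 16 h, against 9.29% of all loci, 3 of 3 metallothioneins were higher, against 7.49%, and 0 of 14 glycolysis genes and 0 of 8 of the methionine cycle were called.

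Leaving out 1 stele cell gave 2 to 9 members called higher and 4 to 11 called lower. The count of higher calls was 8 without stele cell 3 at 16 h, 9 without stele cell 4 at 16 h, 7 without stele cell 1 or 2 at 0 h and 6 without stele cell 3 at 0 h, and it was 2 without stele cell 1 or 2 at 16 h, where SAC52 dropped out. The count of lower calls was 5 without stele cell 2 or 4 at 16 h or stele cell 3 at 0 h, and 11 without stele cell 2 at 0 h. AIL6, AT3G10020, BZIP53, AT3G62422 and AT3G56880 were called in the same direction each time.

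**Figure D5:**
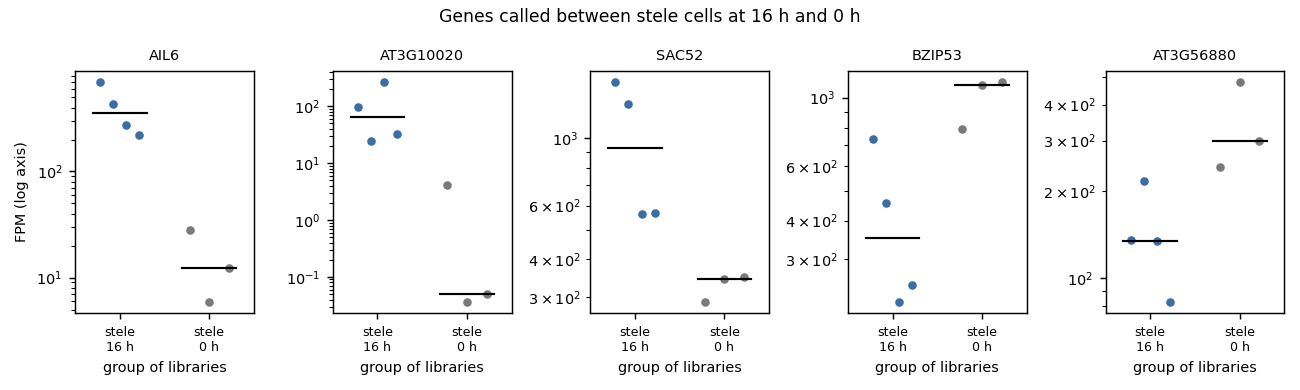
FPM on a log axis of the genes called between stele cells at 16 h and 0 h, with a point for each library and a line at the median of its group. AIL6 was at 219 FPM or more at 16 h and at 28.0 FPM or less at 0 h, and AT3G62422, which equals BZIP53, is not drawn.

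By the same rule 5 members were higher in QC cells than in stele cells at 0 h (UGT73B4, UGT73B5, AIL6, AT5G10980 and AT3G10020), against 0.279% of 9686 loci, and 0 were lower, against 12.9%. In comparison with stele cells at 16 h, 1 member was higher, UGT73B5, against 0.104% of 9595 loci, and 0 were lower, against 8.03%. Without stele cell 3 at 16 h, 2 were higher, and without stele cell 2 at 0 h, 2 were lower than at 0 h. Nothing is read from these counts, since a floor of 10 FPM in every QC cell chose the members. The lowest medians over the 7 stele cells were those of UGT73B4, AT3G10020, UGT73B5, PDX1.1 and GSTU22, at 17.7, 24.4, 29.2, 32.4 and 33.1 FPM.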

How the data were processed

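The authors aligned single-end reads of 50 bases to TAIR10 with Bowtie2 in local mode, with several placements of a read allowed. They counted reads per gene over its exons, dropped genes whose reads covered little sequence and scaled to depth. Log2 values with 1 added were deposited for 32678 loci and 2 reporter rows in 31 libraries. The version of Bowtie2 is not given in the sources used here. Here the log2 was undone, the reporter rows CFP and GFP were left out, and each library was scaled to 1000000. The spacing of low values was taken as 1 read, although it may stand for less where reads were counted in part, and 100% of values under 1000 reads were whole within 0.05, so that library totals could be given. A value of 10 FPM stood for at least 116 reads.

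Groups came from the labels of cell type and time. Since no plant is named for a cell, no test of a difference between groups was made, and Dixon's ratio was used to find single libraries that stood apart, not to compare groups. Where QC cells and stele cells, or stele cells at 16 h and 0 h, were compared, loci with a mean of 10 FPM or more over the libraries compared (for QC cells against stele cells, the mean of both group means) were used, and a call needed medians 2-fold apart and no overlap. Log2 differences used log2(FPM + 1). Every member was named once under its role, and values were given in full for the 10 highest QC medians, the 5 smallest and 5 largest SDs, the 5 lowest stele medians, the 5 largest ratios of QC to stele medians, calls between 16 h and 0 h, and 3 loci on either side of the threshold. Other members with values were picked after they were seen. The members and lists were chosen with earlier results of these data known. Gene models and sequences were taken from TAIR10.1 of RefSeq by locus, with 73 of 74 members matched.

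Alternatives were other levels, folds and pseudocounts, scaling by the median ratio, thinning to the lowest total, alike QC cells counted once, no filter on the mean, and leaving out each aliquot or stele cell. Leaving out a set of QC cells or 1 QC cell, SDs within sets and counting equal loci once were chosen after seeing the data. The rule for members and the calls were tried on simulated data. The spread in those data was not fitted to these cells, so that no error rate of the calls is taken from them. The tools were matplotlib 3.10.9, scipy 1.17.1, pandas 2.3.3 and numpy 2.4.6 under Python 3.11.15.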

Additional observations from a re-analysis of the deposited data

Results flagged for a closer look

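Each of the 74 members and their summed level was examined in the 4 aliquots and in the 4 stele cells at 16 h for a library far from the others, by Dixon's ratio at its 95% critical value. Chance gives about 1 group in 20, and 10 of 150 groups (6.67%) passed. Stele cell 3 at 16 h held 4 of them, with 1863 FPM of APX1 (the others 588 to 759), 413 FPM of UGT73B4 (0.171 to 17.7), 840.2 FPM of HSC70-1 (1758 to 1875) and 245 FPM of UBC8 (79.1 to 104). Stele cell 4 at 16 h had 13497 FPM of AT2G01010 (2898 to 3896) and 13539 FPM of AT3G41768 (2911 to 3916), which are 1 measurement of 18S ribosomal RNA. Stele cell 2 at 16 h had 209.7 FPM of AT1G76600 (7.31 to 40.3). In aliquots, aliquot 3 had 1202 FPM of AT1G07930 (2054 to 2200), aliquot 4 had 458 FPM of AT5G08780 (349 to 364) and aliquot 1 had 320.1 FPM of UBC8 (77.3 to 112).

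The rows of the reporters were outside the comparisons of members. Over the 7 stele cells the CFP row had a median log2 of 15.76 (14.07 to 16.16) and the GFP row of 15.60 (13.91 to 16.00), while the highest value of either row in a QC cell or aliquot was 6.49.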

How the results depend on the processing

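The number of members was 1801 for loci above 0, 153 with median-ratio scaling, 118 without the set of QC cell 1 and 132 without the set of QC cell 2, where sets were chosen after seeing the data. With median-ratio scaling 7 members were lower at 16 h than at 0 h, 4 were higher in QC cells than in stele cells at 16 h, the median SD over QC cells was 2.12 and the median log2 difference was reversed, at -0.03057. That scaling changed 3 QC cells by 10-fold or more. At a fold of 1.5, 7 members were higher and 5 lower at 16 h, and at a fold of 4, 0 were lower. Leaving out 1 stele cell gave 2 to 9 higher and 4 to 11 lower members at 16 h, 0 to 2 lower in QC cells than at 0 h and 1 to 2 higher in QC cells than at 16 h. Leaving out 1 aliquot gave a median SD over aliquots of 0.2724 to 0.3292, with 0.2724 without aliquot 3. The cause of these changes was not tested, except that fewer cells make overlap less likely by construction. BZIP53 and AT3G62422 counted once left 2 lower members. The median log2 difference ran from 0.07732 to 0.36 when 1 stele cell was left out. No paired analysis was possible because the comparisons of groups come from no test and replicate numbers mark no shared plant or batch. Counts of non-overlapping cells rest on 4 cells at 16 h and 3 at 0 h.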
